A study of Bos taurus with 138 samples.

Results

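The enzymes that add or remove acetyl and methyl groups on histone lysines were followed in cattle through 6 stages, from the immature oocyte to the blastocyst. They were chosen by symbol alone: names starting with KMT, SETD, EHMT, SUV39H, EZH or HDAC, names starting with NSD, KDM, KAT or SIRT and a digit, and DOT1L. The rule found 71 of the 16706 gene symbols in the count table, and all 71 had enough counts to be tested. By their best known substrate they comprised 7 H3K4, 6 H3K9, 2 H3K27, 4 H3K36, 1 H3K79 and 3 H4K20 methyltransferases, 6 other SET domain proteins, 16 lysine demethylases, 8 acetyltransferases, 11 zinc-dependent deacetylases and 7 sirtuins. The name rule also takes in enzymes whose main substrates are not histones, such as HDAC6, SIRT3 and SIRT5.

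Germinal vesicle (GV) oocytes, oocytes arrested at metaphase II (MII) and 2-cell, 8-cell, morula and blastocyst embryos were compared. All were bovine and unmodified. The oocytes came from slaughterhouse ovaries, MII oocytes were matured in vitro, and embryos were made from matured oocytes by fertilization with semen of a single Holstein bull and cultured in vitro, so values after the GV stage describe in vitro material, and in every library many oocytes or embryos were pooled. Before collection, oocytes and embryos were treated in culture with cycloheximide, which holds ribosomes on mRNA. The drug was also present in the lysis buffer and gradients. At each stage 2 sucrose gradients (A and B) were collected as 10 fractions (F1 to F10), and 3 transcriptome libraries (A to C) were made without a gradient. The counts of F8, F9 and F10, where mRNAs carrying many ribosomes sediment, were summed for each gradient and are called polysomes below.

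Histone lysine marks are written by methyltransferases and acetyltransferases and taken off by demethylases and deacetylases. Methylated H3K4 and H3K36 and acetylated lysines accompany transcribed chromatin, while methylated H3K9 and H3K27 accompany silent chromatin. The oocyte is nearly silent after its growth and lives on stored mRNA, and in cattle the major activation of the embryonic genome falls around the 8-cell stage, so before that stage changes in ribosome loading of stored mRNA can alter enzyme supply without new transcription.

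Levels are given in CPM, which are counts relative to the total of the library after scaling by trimmed mean of M values. The 18 transcriptomes held 3269386 to 11812567 counts, with the blastocyst libraries at the low end, and the 12 polysome pools held 22543737 to 39380638, so a level of 3 counts stood at 0.254 to 0.918 CPM in transcriptomes and at 0.0762 to 0.133 CPM in pools. The 2 pools of a stage agreed least in 8-cell embryos and morulae (Pearson's r of 0.798 and 0.851 across genes, on a log scale), against 0.931 to 0.969 at the other stages. Summed oocyte markers stood at 9290 to 21251 CPM in GV, MII and 2-cell transcriptomes and at 304 to 622 CPM in 8-cell ones. Summed trophectoderm markers reached 4749 to 5408 CPM in blastocyst transcriptomes, most of it KRT8 and KRT18 (means of 1756 and 3169 CPM). Of these 5 markers, 3 were called higher and 0 lower from morula to blastocyst transcriptomes. CDX2 stood at a mean of 7.05 CPM in blastocyst and 6.94 CPM in 2-cell transcriptomes. Summed mesenchyme markers were high in every 8-cell library: 13918, 2897 and 2277 CPM in transcriptomes A to C and 1396 and 1665 CPM in the pools, against 3.8 to 5.94 CPM in 2-cell transcriptomes, 9.95 and 10 CPM in 2-cell pools and 343 to 889 CPM in morula and blastocyst libraries. In morulae and blastocysts most of this sum was SPARC, at means of 355 and 349 CPM in transcriptomes and 566 and 356 CPM in pools. Each other mesenchyme marker had a mean of at most 25.4 CPM there. All 8 of the mesenchyme markers were called higher from 2-cell to 8-cell embryos in both kinds of library. They moved with every change at the 8-cell stage given here. Their part in those changes was not tested. Summed mesenchyme markers also stood at 2.03 to 5.02 CPM in GV and 49 to 99.9 CPM in MII transcriptomes, with 3 of the 8 called higher. Of 9 cumulus or granulosa cell markers, 2 were called higher and 1 lower from GV to MII transcriptomes. From 2-cell to 8-cell embryos 4 of these were called higher and 2 lower in transcriptomes, and 3 higher and 3 lower in polysomes. From 8-cell to morula transcriptomes 6 were called lower and 0 higher. The part of these markers in the GV to MII changes and in those at the 8-cell stage was not tested either. Results were also computed without the 8-cell transcriptome A, which does not remove the markers of the other 8-cell libraries. Levels are relative to all mRNA of a library, and fewer cells of a type cannot be told apart from less mRNA per cell. Where a stage is compared with another, log2 fold changes (log2FC) are later minus earlier, and where polysomes are compared with the transcriptome they are polysomes minus transcriptome. Where an SE is given, it was worked out from the log2FC and the F statistic of edgeR's quasi-likelihood test. It therefore restates the p value and is no separate measure of spread. Adjusted p values cover all 14612 genes tested.

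In GV oocytes 27 of the 71 genes differed between polysomes and transcriptome at an adjusted p under 0.05 (16 higher and 11 lower in polysomes), or 38% against 39.8% of all genes tested (22.2% higher and 17.7% lower). The count was 34 in MII oocytes (18 higher, 16 lower) where 57.5% of all genes passed (30.8% and 26.7%), 37 in 2-cell embryos (19 and 18) where 51% passed (29.1% and 21.9%). It was 42 in 8-cell embryos (21 and 21) where 59.1% passed (28% and 31%). It was 35 in morulae (19 and 16) against 51.7% (26.5% and 25.2%), and 32 in blastocysts (15 and 17) against 40.1% (20% and 20.1%). As shares of the 71 these counts came to 47.9%, 52.1%, 59.2%, 49.3% and 45.1% from MII oocytes to blastocysts, near the share of all genes or below it except for a small excess in blastocysts. They give no result about the family as a whole. Scaling by library totals moved the balance to 14 higher and 18 lower in morulae and to 7 higher and 20 lower in blastocysts, with the median of all genes moving from 0 to -0.34 and from -0.08 to -0.42 on the log2 scale. Both pools lay above all 3 transcriptomes for 28, 24, 31, 18, 24 and 22 of the 71 genes from GV oocytes to blastocysts, where 36.4%, 37.4%, 40.4%, 27%, 28.3% and 30.2% of all genes did so. They lay below all 3 for 26, 28, 27, 25, 22 and 29, against 35.8%, 37.3%, 34%, 37.1%, 33.6% and 30.9% of all genes. Among the 71, 6 were called higher in polysomes at every stage (SUV39H1, KAT2A, KAT5, KDM5C, SIRT6 and HDAC10, against 9.92% of all genes) and 5 lower at every stage (EZH2, KAT6B, SETD9, SIRT1 and HDAC2, against 5.78%). With those included, 24 were called only higher at 1 or more stages and 29 only lower, 9 went both ways at different stages and 9 were called at no stage, where 37.6%, 41.6%, 7.53% and 13.2% of all genes did so. These patterns were read from 6 tests a gene and were not tested as patterns. Where a polysome letter is left out, 1 pool a stage remains and the spread comes from the transcriptomes alone, with the lone pool assumed to vary like them. The log2FC of such a setting is therefore given as a value, and its call is weak evidence. A transcriptome letter left out bears on a polysome change between stages only through the joint fit (spread, filter and scaling). It is no check of the pools compared.

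**Figure D1:**
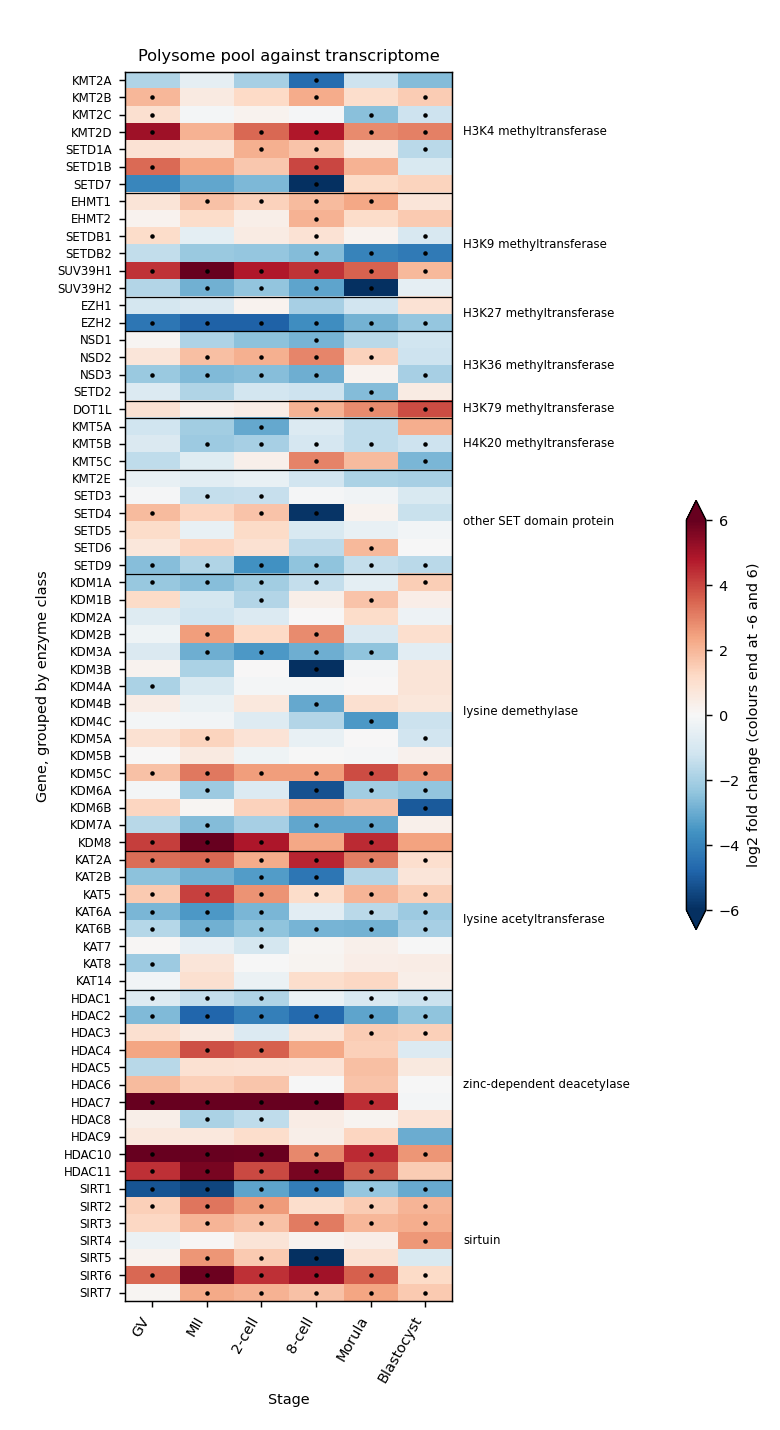
Log2 fold change of polysomes (2 pools) against transcriptome (3 libraries) for the 71 genes (rows, grouped by enzyme class) at the 6 stages (columns), with dots on the calls at an adjusted p under 0.05. Red or blue along a whole row marks genes such as SUV39H1 (1.93 to 6.98) and EZH2 (-4.84 to -2.30). The colours end at -6 and 6, and the strongest 8-cell values of SETD7, KDM3B and SIRT5 rest on pools with at most 1 count and depend on the prior count of the fit.

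**Figure D2:**
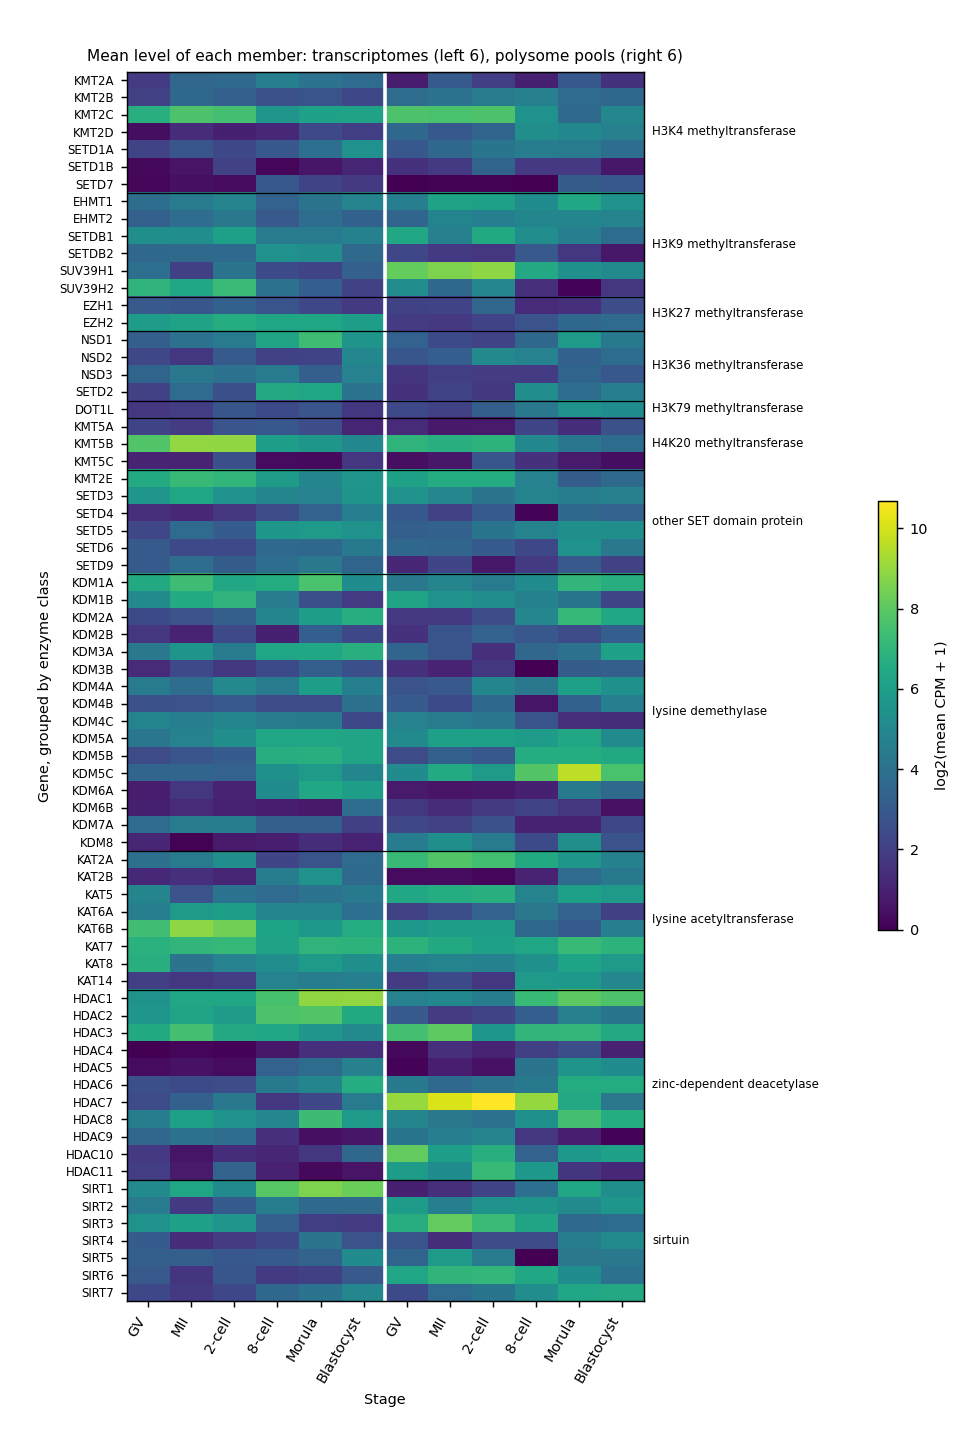
Mean level, log2(CPM + 1), of each of the 71 genes in transcriptomes (left 6 columns, n = 3) and polysomes (right 6 columns, n = 2) by stage. Colours can be compared along a row but not between genes, since counts were not divided by length. The strips of KDM5B and KDM6A turn from dark to bright at the 8-cell transcriptome, and that of SUV39H2 turns dark from there on.

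SUV39H1 and SUV39H2 are paralogs that both trimethylate H3K9 in constitutive heterochromatin, and they were called on opposite sides of the transcriptome from MII oocytes to morulae. SUV39H1 transcriptome levels were 19.1, 10.9 and 12.1 CPM in GV oocytes and 4.12, 3.55 and 1.55 CPM in MII oocytes. Its polysome levels were 282 and 294 CPM in GV oocytes and 452 and 328 CPM in MII oocytes. Both pools were far above all transcriptomes, by a log2FC of 4.36 ± 0.43 in GV oocytes (adjusted p = 2.89e-08) and 6.98 ± 0.49 in MII oocytes (126-fold, adjusted p = 2.9e-11). The lighter fractions F3 to F5 held 434 and 491 CPM in GV oocytes and were also called above the transcriptome at all 6 stages. This excess is therefore not particular to the polysome fractions. The gap between polysomes and transcriptomes narrowed with development. In 8-cell embryos polysomes held 118 and 53.8 CPM and transcriptomes 4.97, 5.2 and 2.7 CPM, and in blastocysts they held 38.9 and 27.3 CPM against 11.5, 7.25 and 7.6 CPM, still without overlap (log2FC 1.93 ± 0.42, adjusted p = 0.000756). Between GV and MII the SUV39H1 transcriptome level fell by 2.19 ± 0.40 on the log2 scale (adjusted p = 0.000282) and from MII to 2-cell embryos it rose by 2.42 ± 0.40 (adjusted p = 0.000204), while neither change was called in polysomes. The 6 comparisons of SUV39H1 polysomes with the transcriptome stayed called under each of 9 alternative settings and with any replicate letter left out at all stages.

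SUV39H2 was called lower in polysomes at 4 of the 6 stages. Its transcriptome means were 125 ± 13.4, 81.3 ± 2.98 and 156 ± 27.5 CPM (SD, n = 3) in GV, MII and 2-cell material and 15.5 ± 1.25 CPM in 8-cell embryos. Polysomes held 43.1 and 31.2 CPM in GV oocytes, 8.97 and 13.2 CPM in MII oocytes and 26.2 and 34.1 CPM in 2-cell embryos. All of these pools lay below all transcriptomes of their stage, and the difference was called in MII (log2FC -2.88 ± 0.75, adjusted p = 0.00231), 2-cell (-2.37 ± 0.73, adjusted p = 0.0092) and 8-cell material (-3.16 ± 0.78, adjusted p = 0.00139) but not in GV oocytes. In morulae the 2 pools held 5 counts together (0.0482 and 0.115 CPM) against 11.2, 5.1 and 8.51 CPM in transcriptomes. In blastocysts the pools held 0.305 and 4.17 CPM and the transcriptomes 4.7, 2.07 and 3 CPM, with overlap and no call. The polysome level had risen from morulae (4.57 ± 0.99, adjusted p = 0.00397). From 2-cell to 8-cell embryos SUV39H2 fell by 3.33 ± 0.65 in the transcriptome (adjusted p = 0.000182) and by 4.12 ± 0.84 in polysomes (adjusted p = 0.000363). Without transcriptome letter A or B the 2-cell difference was no longer called, at log2FC values between -2.58 and -2.22 over all letters.

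SETDB1, which trimethylates H3K9 at retroelements, was the H3K9 enzyme whose polysome level changed at both steps around MII. Its polysomes held 75.5 and 89.6 CPM in GV oocytes, 26.3 and 22.7 CPM in MII oocytes and 87.5 and 93.8 CPM in 2-cell embryos, so that the MII pools lay below all others of the 3 stages. The fall was 1.75 on the log2 scale (SE 0.35, adjusted p = 0.00362) and the rise 1.89 ± 0.35 (adjusted p = 0.00153). Its transcriptome ranges overlapped between GV (28.9 to 48.5 CPM) and MII oocytes (34.5 to 40.2 CPM). EHMT1, which together with EHMT2 forms the main H3K9 dimethyltransferase, was higher in polysomes in MII oocytes (64.3 and 78.7 CPM against 18.3, 22.1 and 22.5 CPM, log2FC 1.77 ± 0.51, adjusted p = 0.00469) and in 2-cell, 8-cell and morula embryos, the 2-cell call being lost with any transcriptome letter left out. The EHMT1 call in 8-cell embryos rested on pool B (60.3 CPM against 11.1 CPM in pool A), and without letter B the log2FC was 0.23. EHMT2 was called only in 8-cell embryos, where pool B again decided (53.6 against 5.04 CPM), and without it the log2FC turned from 2.08 to -0.46. SETDB2, a relative of SETDB1, was lower in polysomes from the 8-cell stage on, with 0 and 4.54 CPM against 33.4, 33.5 and 44.4 CPM in morulae (log2FC -4.01 ± 1.08, adjusted p = 0.00355).

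EZH2 and EZH1 are the alternative catalytic subunits of PRC2, the complex that methylates H3K27. EZH2 transcriptome levels were similar across stages, from 47.7 CPM in a GV library to 105 CPM in a 2-cell library. Its polysomes held 3.33 and 2.22 CPM in GV oocytes, 1.58 and 3.36 CPM in MII oocytes and 2.92 and 3.88 CPM in 2-cell embryos. In later stages EZH2 polysomes held 0.369 and 11 CPM (8-cell), 7.04 and 15.1 CPM (morula) and 19.6 and 5.45 CPM (blastocyst). Every pool was below every transcriptome of its stage, by a log2FC of -4.35 ± 0.82 in GV oocytes (adjusted p = 0.000156), -4.84 ± 0.84 in 2-cell embryos (adjusted p = 4.07e-05) and -2.30 ± 0.74 in blastocysts (adjusted p = 0.0154). The blastocyst call was lost with any transcriptome letter left out, though the pools stayed below, at log2FC values of -2.40 to -2.22 over those 3 settings. EZH1 was called in none of the 6 comparisons: its transcriptome means ran from 8.95 ± 0.349 CPM in 2-cell embryos to 2.55 ± 0.826 CPM in blastocysts, and its pools differed within a stage as much as 6.84 and 0 CPM in MII oocytes.

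Of the other PRC2 genes, which the name rule leaves out, 9 were read from the 2 lists of pathway genes, and they did not all lie on the side of EZH2. SUZ12 was lower in polysomes at all 6 stages, with log2FC values of -4.78 ± 0.81 in 2-cell embryos and -2.59 ± 0.71 in blastocysts at the ends of its range. AEBP2 (-2.73 to -1.75), RBBP4 (-3.59 to -0.68) and RBBP7 (-3.04 to -0.80) were also called lower at all 6 stages. EED was called lower at the first 5 stages, with -5.49 in MII oocytes, and stood at -0.66 in blastocysts, which was not called. MTF2 was called lower from MII oocytes to morulae (-3.04 to -2.08), and JARID2 only in GV oocytes (-1.78). PHF19 was called higher in MII oocytes (4.94), morulae (4.20) and blastocysts (3.45), and PHF1 higher in MII oocytes (1.65) and 2-cell embryos (3.12) and lower in blastocysts (-1.88). Both lists were chosen with results of these data known.

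**Figure D3:**
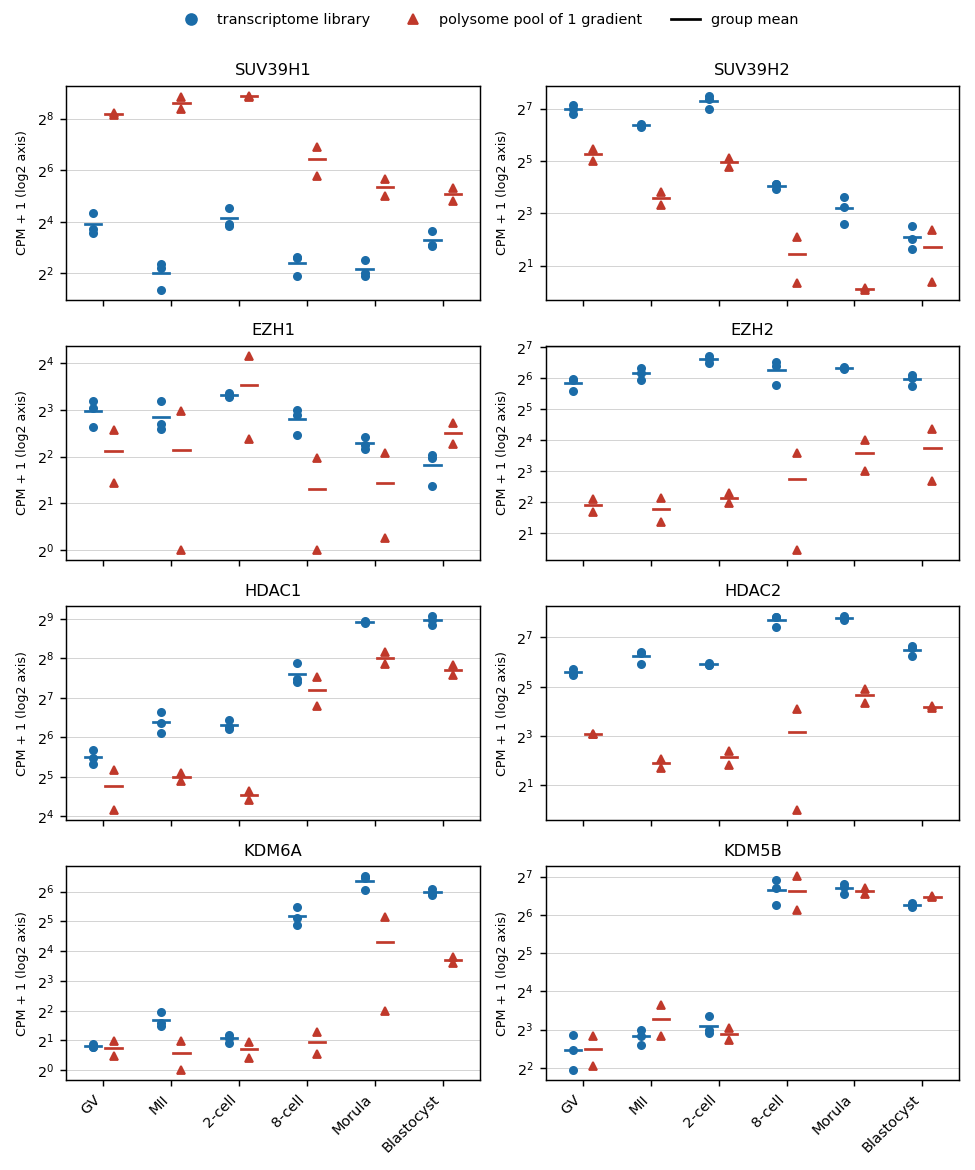
Level in each library, CPM + 1 on a log2 axis, of 4 pairs of genes by stage: SUV39H1 and SUV39H2, EZH1 and EZH2, HDAC1 and HDAC2, KDM6A and KDM5B. Blue circles are transcriptomes, red triangles polysome pools and lines group means. For SUV39H1 the triangles lie above the circles at all 6 stages, for EZH2 and HDAC2 below them, and for KDM5B the symbols overlap and rise together from the 2-cell to the 8-cell stage.

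Among the H3K4 methyltransferases, KMT2B and KMT2D leaned towards polysomes, and KMT2C changed sides. KMT2D, which with KMT2C marks enhancers with monomethylated H3K4, held 33.3 and 41.6 CPM in 8-cell polysomes and 1.54, 0.448 and 2 CPM in 8-cell transcriptomes (log2FC 4.81 ± 1.15, adjusted p = 0.00108). It was also called higher in GV oocytes and in 2-cell, morula and blastocyst embryos, but in MII oocytes the pools differed (12.6 and 0.572 CPM), and the last 3 of these calls were lost with any transcriptome letter left out. KMT2B, which trimethylates H3K4 at promoters in oocytes, held 28.8 and 19.8 CPM in 8-cell polysomes against 5.65, 2.87 and 7.13 CPM (log2FC 2.22 ± 0.53, adjusted p = 0.00109), and its polysome range lay above the transcriptome range also in GV oocytes (11.8 and 14.1 against 2.36 to 3.95 CPM, log2FC 1.99 ± 0.53, adjusted p = 0.00434). The GV call was lost without transcriptome letter B.

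KMT2C levels were 123, 97.4 and 99.7 CPM in GV transcriptomes and 197 and 217 CPM in GV polysomes, the pools being above all transcriptomes (log2FC 0.96 ± 0.30, adjusted p = 0.0146, lost without letter B or C). In 8-cell embryos the ranges met, at 40.7 to 55.7 CPM in transcriptomes and 41.7 and 47.7 CPM in polysomes. In morulae the order was the other way round, with 14.7 and 9.4 CPM in polysomes and 69.3, 75.7 and 60 CPM in transcriptomes (log2FC -2.50 ± 0.34, adjusted p = 2.43e-06). SETD1A, the catalytic subunit of a COMPASS complex, moved likewise: its 2-cell pools (22.3 and 11.8 CPM) lay above the transcriptomes (2.96 to 4.74 CPM, log2FC 2.12 ± 0.47, adjusted p = 0.00063) and its blastocyst pools (13.4 and 13.6 CPM) below them (39.2 to 46.6 CPM, log2FC -1.63 ± 0.50, adjusted p = 0.0117). The blastocyst call of SETD1A was lost without transcriptome letter B or C. SETD1B was called higher in polysomes in GV and 8-cell material, where its 3 transcriptomes held 6 and 5 counts together, so its fold is poorly fixed. KMT2A was called only in 8-cell embryos (0 and 1.87 CPM in polysomes, 21.5 to 26.4 CPM in transcriptomes), a call lost with any transcriptome letter left out.

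The shared subunits of the COMPASS and MLL complexes did not move as a block. CXXC1 (1.5 to 6.12), MEN1 (1.81 to 5.65), HCFC1 (4.25 to 6.72) and WDR5 (1.47 to 3.79) were called higher in polysomes at all 6 stages. DPY30 was called lower in GV, MII, 2-cell and 8-cell material (-2.88 to -1.86) and was not called in morulae (-1.0) or blastocysts (0.13). RBBP5 was called lower in MII, 2-cell and 8-cell material. ASH2L was called lower in GV, MII and 2-cell material (-1.91 to -1.12) and higher in morulae (1.07), and WDR82 was called at no stage.

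SETD2, the main enzyme that trimethylates H3K36, rose together in both kinds of library as the genome was activated. Its transcriptomes held 3.96, 2.56 and 8.57 CPM in 2-cell and 85.2, 80.2 and 96.7 CPM in 8-cell embryos, and its polysomes 3.78 and 0.83 CPM and then 37.3 and 37.5 CPM. Neither kind overlapped between the 2 stages, and the rise was 4.12 ± 0.79 (adjusted p = 0.000151) in transcriptomes and 4.01 ± 0.96 (adjusted p = 0.0017) in polysomes. NSD3, which methylates H3K36 to the dimethyl state, was lower in polysomes at every stage but the morula, as in MII oocytes (3.03 and 3 CPM against 20.1, 18.8 and 17.1 CPM, log2FC -2.63 ± 0.79, adjusted p = 0.00687). The GV and blastocyst calls of NSD3 were lost with any transcriptome letter left out. NSD2 was higher in polysomes in MII, 2-cell, 8-cell and morula material, as in 2-cell embryos (26.4 and 36.5 CPM against 6.54, 5.36 and 9.63 CPM, log2FC 2.13 ± 0.58, adjusted p = 0.00374). The morula call of NSD2 held in 3 of 9 alternative settings, and its 2-cell call was lost without transcriptome letter B (log2FC not under 1.87). NSD1 transcriptomes rose from 15.3 to 24.8 CPM in 2-cell embryos to 143 to 195 CPM in morulae, and its 8-cell pools held 0 and 21.7 CPM (log2FC against the transcriptome -2.79 ± 1.11, adjusted p = 0.0348, lost with any transcriptome letter left out).

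DOT1L, the H3K79 methyltransferase, ranged from 1.66 to 8.68 CPM in the transcriptomes of all stages. Its polysomes held at most 9.09 CPM up to the 2-cell stage, 31.6 and 56 CPM in morulae and 27.7 and 42.9 CPM in blastocysts. The later pools were above all transcriptomes, by a log2FC of 2.84 ± 0.79 in morulae (adjusted p = 0.00437) and 3.93 ± 0.83 in blastocysts (adjusted p = 0.000616), the former lost without transcriptome letter C. In 8-cell embryos the pools disagreed (1.39 and 35.4 CPM), and the log2FC of 2.09 turned to -1.62 without letter B. Of the H4K20 enzymes, KMT5B, which makes dimethylated and trimethylated H4K20, held 389, 472 and 614 CPM in MII transcriptomes and 103 and 111 CPM in MII polysomes (log2FC -2.20 ± 0.41, adjusted p = 7.66e-05). Its transcriptome level then fell by 2.95 ± 0.36 from 2-cell to 8-cell embryos (507, 471 and 476 CPM to 54.3, 54.3 and 78.9 CPM, adjusted p = 4.05e-07), with no overlap. KMT5A, which makes monomethylated H4K20, was called only in 2-cell embryos, where polysomes held 1.22 and 0.215 CPM and transcriptomes 4.49 to 7.82 CPM (log2FC -3.06 ± 1.26, adjusted p = 0.0456, lost with any transcriptome letter left out). KMT5C, the paralog of KMT5B, fell in transcriptomes from 5.48, 3.52 and 6.24 CPM in 2-cell embryos to 8 counts over the 3 libraries in 8-cell embryos (0.0857, 0.179 and 0.435 CPM, a fall of 4.40 with SE 1.02, adjusted p = 0.000939).

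Among the other SET domain proteins, SETD9 was lower in polysomes at each stage, with 0.472 and 0.8 CPM against 8.9, 9.51 and 5.41 CPM in 2-cell embryos (log2FC -3.63 ± 0.59, adjusted p = 1.67e-05). Its morula and blastocyst calls were lost with any transcriptome letter left out, and its MII call without letter C. SETD4 polysomes held 10.1 and 4.68 CPM in 2-cell embryos, 0 and 0.136 CPM in 8-cell embryos (5 counts in all) and 10.7 and 10.7 CPM in morulae, whereas its transcriptomes held 1.75 to 2.56, 2.44 to 6.18 and 6.53 to 11.4 CPM. The 8-cell pools of SETD4 thus lay below all other libraries of the gene. SETD7, which can monomethylate H3K4, had no count in the 8-cell pools, at least 49.2-fold below its mean of 6.55 CPM in the 8-cell transcriptomes. In morulae the SETD7 pools held 3.57 and 12.3 CPM. SETD7 stood at 12.5 CPM in the 8-cell transcriptome A with the high mesenchyme markers, against 2.87 and 4.26 CPM in B and C, all above the 8-cell pools. SETD5 rose in transcriptomes from 7.99, 7.43 and 7.37 CPM in 2-cell to 64.2, 31.5 and 55.3 CPM in 8-cell embryos (2.73 ± 0.50, adjusted p = 7.86e-05), and its polysomes and transcriptome were called different at no stage. SETD3, an actin histidine methyltransferase, was lower in polysomes in MII oocytes (37 and 22.8 CPM against 77.9 to 81.4 CPM, log2FC -1.41 ± 0.45, adjusted p = 0.00999, lost without transcriptome letter B or C). SETD6 was called higher in morula polysomes, where pool A held 71.5 and pool B 16.7 CPM, and the call was lost without pool A (0.53). KMT2E, which has a SET domain but is not known to methylate H3K4 by itself, was called different between polysomes and transcriptome at no stage. From the earlier to the later stages it fell by 1.52 ± 0.39 in transcriptomes (adjusted p = 0.00134) and by 2.68 ± 0.50 in polysomes (adjusted p = 4.45e-05).

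The 16 demethylases included both genes with parallel rises in the 2 kinds of library and genes in which polysomes lagged. KDM5B, which removes methyl groups from H3K4, had the clearest parallel rise. Its transcriptomes held 6.92, 6.55 and 9.33 CPM in 2-cell and 74.9, 104 and 120.0 CPM in 8-cell embryos, and its polysomes 5.64 and 7.2 CPM and then 68.6 and 128 CPM. The rise was 3.71 ± 0.37 in transcriptomes (13.1-fold, adjusted p = 1.94e-08) and 3.94 ± 0.46 in polysomes (15.3-fold, adjusted p = 3.94e-07), and polysomes and transcriptome of KDM5B were told apart at no stage. KDM5C, an X-linked relative, was higher in polysomes at all stages, as in 8-cell embryos (189.7 and 266 CPM against 51.4, 28.1 and 39.7 CPM, log2FC 2.52 ± 0.53, adjusted p = 0.000329). In morulae its 2 pools differed widely (305 and 1297 CPM) but were both above the transcriptomes (44.3 to 59.9 CPM, log2FC 3.94 ± 0.56, adjusted p = 3.43e-06). The GV call of KDM5C (1.75) was lost without transcriptome letter B or C. KDM5A rose in transcriptomes from 38.9, 36.1 and 39 CPM in 2-cell to 74.7, 75.2 and 84.3 CPM in 8-cell embryos (1.04 ± 0.37, adjusted p = 0.0204, lost with any transcriptome letter left out), while its polysomes held 84.3 and 50.1 CPM and then 21 and 92.4 CPM.

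KDM6A and KDM6B remove methyl groups from H3K27. KDM6A was nearly absent from transcriptomes before activation (0.709 to 2.84 CPM over 9 libraries) and held 43.3, 33.6 and 28.2 CPM in 8-cell embryos, a rise from the 2-cell stage of 4.98 ± 0.87 (31.6-fold, adjusted p = 4.72e-05). Its 8-cell polysomes stayed at 0.451 and 1.41 CPM, within the earlier range, so polysomes were below the transcriptome by a log2FC of -5.21 ± 1.04 (adjusted p = 0.000181). In morulae KDM6A polysomes reached 2.99 and 34.6 CPM and in blastocysts 11.1 and 13 CPM, against 66.2 to 90.8 and 58.7 to 67.8 CPM in transcriptomes. The difference between polysomes and transcriptome in the step from 2-cell to 8-cell embryos was itself called (-4.41 ± 1.25, adjusted p = 0.0228). The morula and blastocyst calls of KDM6A were lost with any transcriptome letter left out. KDM6B rose in the blastocyst transcriptome (16.5, 7.46 and 15 CPM, from 0 to 1.21 CPM in morulae, a call lost without letter B or C), and its blastocyst pools held 0.653 and 0.128 CPM (log2FC against the transcriptome -5.03 ± 1.29, adjusted p = 0.00329).

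KDM1A and KDM1B are amine oxidases that demethylate H3K4. From the 3 earlier to the 3 later stages the polysome level rose for KDM1A (1.81 ± 0.23, adjusted p = 3.07e-07) and fell for KDM1B (-2.10 ± 0.42, adjusted p = 0.000123). KDM1A polysomes held 21.6 and 15.9 CPM in GV oocytes and 97.3 and 104 CPM in blastocysts, and its transcriptomes 102, 89.8 and 79.2 CPM and then 31.7, 40 and 35.6 CPM. Polysomes were thus below the transcriptomes in GV oocytes (log2FC -2.27 ± 0.39, adjusted p = 5.97e-05) and above them in blastocysts (1.49 ± 0.36, adjusted p = 0.00188), without overlap at either stage. KDM1B, whose product is needed for DNA methylation imprints in mouse oocytes, fell from 157, 125 and 89.4 CPM in 2-cell to 22.8, 15.1 and 20.8 CPM in 8-cell transcriptomes (-2.66 ± 0.61, adjusted p = 0.000915). Its 2-cell pools (45.8 and 27.2 CPM) lay below and its morula pools (12.7 and 20.6 CPM) above the transcriptomes of the stage, and both calls were lost with any transcriptome letter left out.

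The H3K9 demethylases KDM3A and KDM3B were both low in 8-cell polysomes. KDM3A held 85.1, 78.8 and 76.2 CPM in 8-cell transcriptomes and 13.5 and 7.75 CPM in polysomes (log2FC -2.91 ± 0.51, adjusted p = 4.39e-05), and it was called lower in polysomes from MII to morula. In blastocysts the KDM3A pools rose to 71.2 and 67.5 CPM (2.17 ± 0.52 above morulae, adjusted p = 0.00747, lost without transcriptome letter B or C) and the difference was no longer called. KDM3B had no count in either 8-cell pool, at least 31.7-fold below its 8-cell transcriptome mean of 4.22 CPM and at least 17.7-fold below its 2-cell polysome mean of 2.35 CPM. KDM4B, which acts on H3K9 and H3K36, showed a like dip: 10.6 and 11.2 CPM in 2-cell, 0 and 1.06 CPM in 8-cell and 8.58 and 9.14 CPM in morula polysomes. The KDM4B fall (-4.31 ± 1.0, adjusted p = 0.00123) and rise (4.01 ± 0.98, adjusted p = 0.003) were called, and its 8-cell transcriptomes (2.44 to 7.37 CPM) overlapped those of both neighbouring stages.

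KDM4C, with the same substrates, ran down: its transcriptomes went from 25.6 to 34.7 CPM in 2-cell to 3.73 to 4.41 CPM in blastocysts, and its morula polysomes held 0 and 3.42 CPM (log2FC -3.47 ± 0.89 against the transcriptome, adjusted p = 0.00241). KDM2A, which demethylates H3K36 at CpG islands, rose in the transcriptome from 7.11 to 8.95 CPM in 2-cell to 93.5 to 114 CPM in blastocysts, and in polysomes from 7.34 and 2.21 CPM to 92.6 and 72.6 CPM, with the 2 kinds of library called different at no stage. KDM8, a JmjC domain protein, held 25.3 and 18.2 CPM in GV polysomes and 2.05, 0.513 and 1.01 CPM in GV transcriptomes, and in MII oocytes its 3 transcriptomes held 1 count in all against 11 and 68.4 CPM in polysomes. The KDM8 pools lay above all transcriptomes in GV, MII, 2-cell and morula material, where the difference was called. The MII call was the only KDM8 call that held with any replicate letter left out, and in 8-cell embryos they held 0 and 8.48 CPM. KDM7A, which acts on H3K9 and H3K27, was lower in polysomes in MII, 8-cell and morula material, with 1.59 and 0.374 CPM against 7.65, 8.31 and 9.26 CPM in morulae (log2FC -3.11 ± 0.97, adjusted p = 0.0104, lost without transcriptome letter B or C). KDM2B, the CpG-island reader of a variant Polycomb complex, was higher in polysomes in MII oocytes (6.56 and 5.22 CPM against 0.687, 0.608 and 1.78 CPM, log2FC 2.52 ± 0.88, adjusted p = 0.0172, lost without transcriptome letter A or B). KDM4A was lower in polysomes in GV oocytes only (6.61 and 4.67 CPM against 9.33 to 28.7 CPM, log2FC -1.91 ± 0.61, adjusted p = 0.0157, lost without transcriptome letter A or C).

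Among the acetyltransferases, KAT2A and KAT5 stood above the transcriptome in polysomes and KAT6A and KAT6B below it. KAT2A, a coactivator that acetylates H3K9, held 126 and 165 CPM in GV polysomes against 16.2, 11.3 and 15.5 CPM in transcriptomes (log2FC 3.34 ± 0.40, adjusted p = 3.88e-07). In 8-cell embryos KAT2A stood at 111 and 68.3 CPM against 3.51, 3.4 and 4.35 CPM (4.57 ± 0.42, adjusted p = 4.37e-09). Its pools were above all transcriptomes at the first 5 stages, whereas the blastocyst call (1.0 ± 0.39, adjusted p = 0.0452) held in 2 of 9 alternative settings and had overlapping ranges. Its paralog KAT2B had 0.902 to 1.82 CPM in the transcriptomes up to the 2-cell stage and 20.6, 22.3 and 24.4 CPM in 8-cell ones, while the 8-cell pools held 0 and 2.17 CPM (log2FC -4.34 ± 1.30, adjusted p = 0.00671). In morulae the KAT2B pools had risen to 10.6 and 14.1 CPM, above both 8-cell pools, a step of 3.48 ± 1.29 (adjusted p = 0.0367) that was lost with any transcriptome letter left out.

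KAT5, the catalytic subunit of the NuA4 complex, was higher in polysomes at each stage, most in MII oocytes (114 and 80.7 CPM against 5.15, 6.49 and 5.59 CPM, log2FC 4.08 ± 0.49, adjusted p = 1.44e-07). Its 8-cell call (1.10 ± 0.45, adjusted p = 0.0407) held in 2 of 9 alternative settings, and its blastocyst call was lost with any transcriptome letter left out. KAT6B, the catalytic subunit of a MOZ/MORF complex, was lower in polysomes at all stages, as in MII oocytes (83 and 42.2 CPM against 370.2, 440.4 and 584 CPM, log2FC -2.89 ± 0.44, adjusted p = 5.69e-06), and the 6 calls held in all 9 settings. Its paralog KAT6A was lower at every stage but the 8-cell stage, where its pools differed (30.3 and 5.53 CPM), and its morula call was lost with any transcriptome letter left out. KAT8, which acetylates H4K16, held 110.5, 109 and 98.5 CPM in GV transcriptomes and 15.5, 16.3 and 16.8 CPM in MII ones, a fall of 2.71 on the log2 scale (SE 0.34, adjusted p = 2.68e-06). Its polysome levels of 24.6 and 21.8 CPM and 13.1 and 39.9 CPM overlapped between these stages, and in GV oocytes they were below the transcriptome (-2.19 ± 0.39, adjusted p = 8.51e-05). KAT14, a subunit of the ATAC complex, rose from 2-cell to 8-cell embryos in both kinds of library, by 3.17 ± 0.87 in transcriptomes (adjusted p = 0.00395, lost with any transcriptome letter left out) and 4.58 ± 1.12 in polysomes (adjusted p = 0.00199). KAT7, the acetyltransferase of the HBO1 complex, was called only in 2-cell embryos (76.2 and 56.1 CPM in polysomes, 129 to 153 CPM in transcriptomes, log2FC -1.08 ± 0.42, adjusted p = 0.0348, lost with any transcriptome letter left out).

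HDAC1 and HDAC2 are the interchangeable deacetylases of the NuRD, Sin3 and CoREST complexes. HDAC1 rose in transcriptomes from 72.6, 76.1 and 85.6 CPM in 2-cell to 177, 168 and 234 CPM in 8-cell embryos and 478, 483 and 492 CPM in morulae. In polysomes it rose from 20.4 and 23.9 CPM to 184 and 111 CPM and then 232 and 285 CPM. The step from 2-cell to 8-cell embryos was called in both (1.31 ± 0.25, adjusted p = 0.000164, and 2.73 ± 0.33, adjusted p = 5.22e-07) and was larger in polysomes (difference 1.42 ± 0.40, adjusted p = 0.0208). HDAC1 was itself called lower in polysomes at every stage but the 8-cell stage (-1.82 to -0.77), and its GV call held in 3 of 9 alternative settings. HDAC2 transcriptomes rose as well, from 60.8, 58.4 and 57.6 CPM to 225, 228 and 172 CPM, but its 8-cell pools held 0 and 16.1 CPM. Its pools were below all transcriptomes at every stage, as in MII oocytes (3.17 and 2.29 CPM against 58.9 to 83.8 CPM, log2FC -4.77 ± 0.99, adjusted p = 0.000246). The GV and blastocyst calls of HDAC2 were lost with any transcriptome letter left out. HDAC8 rose from the 8-cell embryo to the morula in both kinds of library, from 33.2, 28.3 and 27.9 CPM to 164, 169 and 145 CPM in transcriptomes (2.42 ± 0.35, adjusted p = 4.98e-05) and from 53.9 and 27.9 CPM to 267 and 96.1 CPM in polysomes (2.15 ± 0.43, adjusted p = 0.000506). HDAC3, the deacetylase of the NCoR complex, was higher in polysomes of morulae (144 and 122 CPM against 49.7, 45.5 and 44.1 CPM, log2FC 1.52 ± 0.42, adjusted p = 0.00413).

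HDAC7, a class IIa deacetylase that acts with HDAC3, had the widest gap between polysomes and transcriptome among comparisons with more than 10 counts in both groups. Its pools held 487 and 554 CPM in GV oocytes, 1536 and 617 CPM in MII oocytes, 1738 and 1582 CPM in 2-cell and 556 and 460.4 CPM in 8-cell embryos. The transcriptomes held 3.75 to 5.39, 7.2 to 9.62, 14.5 to 22.9 and 1.88 to 2.96 CPM at these stages. The log2FC reached 7.80 ± 0.47 in 8-cell embryos (223-fold, adjusted p = 1.6e-11), was 4.45 ± 0.41 in morulae (adjusted p = 1.07e-08), and in blastocysts polysomes (19 and 16.4 CPM) and transcriptomes (25.6, 16.2 and 17 CPM) overlapped. The other class IIa members differed from HDAC7. HDAC5 rose in both kinds of library at the 8-cell stage, from 0 to 0.526 CPM to 8.65, 10.1 and 9.13 CPM in transcriptomes (5.31 ± 1.10, adjusted p = 0.000316) and from 0.556 and 0.277 CPM to 24.6 and 8.27 CPM in polysomes (5.27 ± 1.27, adjusted p = 0.00173). HDAC9 fell in both, by 2.83 ± 0.87 (adjusted p = 0.00912) and 3.52 ± 1.08 (adjusted p = 0.0106), the former lost with any transcriptome letter left out. HDAC4 transcriptomes held 1 to 3 counts a stage up to the 2-cell stage, so its calls in MII and 2-cell material rest on levels near the limit.

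HDAC10, which deacetylates polyamines, and HDAC11, the only class IV member, were high in polysomes early. HDAC10 pools held 165 and 393 CPM in GV oocytes against 3.72, 1.85 and 1.72 CPM in transcriptomes (log2FC 6.83 ± 1.2, adjusted p = 6.88e-05). In 8-cell embryos the HDAC10 pools held 0.041 and 18.6 CPM, and without letter B the log2FC turned from 2.90 to -4.67, so its place among the genes higher at every stage rests on 1 pool there, and its blastocyst call was lost with any transcriptome letter left out. HDAC11 pools held 119 and 178 CPM in 2-cell and 57.1 and 44.7 CPM in 8-cell embryos against 9.05 to 10.2 and 0.428 to 1.74 CPM in transcriptomes (log2FC 3.94 ± 1.04, adjusted p = 0.00291, and 5.67 ± 1.14, adjusted p = 0.000203). In morulae HDAC11 pools held 0 and 4.31 CPM, and the log2FC of 3.72 turned to -4.30 without letter B. HDAC6, a tubulin deacetylase, was called different from the transcriptome at no stage.

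Of the sirtuins, the NAD-dependent deacylases, SIRT1 and SIRT6 act in the nucleus and stood on opposite sides. SIRT6 pools held 76.6 and 76.6 CPM in GV oocytes, 124 and 129 CPM in MII oocytes and 95.7 and 67.8 CPM in 8-cell embryos, against 5.02 to 8.58, 1.37 to 3.09 and 1.63 to 2.96 CPM in transcriptomes. The log2FC was 5.87 ± 0.46 in MII oocytes (58.3-fold, adjusted p = 1.54e-10) and 5.04 ± 0.44 in 8-cell embryos (adjusted p = 2.03e-09), and the calls of the first 5 stages held in all 9 settings. In blastocysts the SIRT6 call (1.14 ± 0.40, adjusted p = 0.028) held in 4 of 9 settings. SIRT1 pools held 1.13 and 0.676 CPM in GV oocytes and 19.1 and 8.48 CPM in 8-cell embryos, against 31.4, 39.5 and 29 CPM and 216, 276 and 233 CPM in transcriptomes. The log2FC of SIRT1 was -5.19 ± 0.71 (adjusted p = 2.86e-06) and -4.13 ± 0.66 (adjusted p = 1.35e-05) at these stages, and all pools were below all transcriptomes at each stage. SIRT7, a nucleolar H3K18 deacetylase, was higher in polysomes from MII on, as in morulae (89.7 and 71.1 CPM against 13.7, 18.5 and 15 CPM, log2FC 2.35 ± 0.49, adjusted p = 0.000374).

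SIRT2, a mostly cytoplasmic deacetylase of tubulin and H4K16, fell in the transcriptome from 22.4, 21.7 and 18.5 CPM in GV to 2.06, 2.84 and 2.62 CPM in MII oocytes (-3.06 ± 0.47, adjusted p = 3.5e-05) and was higher in polysomes at every stage but the 8-cell stage, the GV and morula calls being lost without transcriptome letter B or C. Its 8-cell transcriptomes held 38 CPM in library A, the library with the high mesenchyme markers, and 9.95 and 17.3 CPM in B and C. The mitochondrial SIRT3 held 312 and 247 CPM in MII polysomes against 64.8, 49.7 and 91.3 CPM (log2FC 2.03 ± 0.62, adjusted p = 0.00719) and was also called higher in 2-cell, 8-cell, morula and blastocyst embryos. Of these SIRT3 calls only that in 8-cell embryos (3.1 ± 0.64, adjusted p = 0.000246) held with any replicate letter left out, and without the higher pool the log2FC fell to 0.38 in morulae and 0.11 in blastocysts. The mitochondrial desuccinylase SIRT5 was the clearest case of a transient loss. Its polysomes held 43.5 and 62.7 CPM in MII oocytes, 23.2 and 15.7 CPM in 2-cell embryos, 0 and 0.0271 CPM in 8-cell embryos (1 count in all) and 5.2 and 30.2 CPM in morulae. The SIRT5 transcriptomes held 6.39 to 11.2, 6.17 to 6.79, 3.57 to 12.7 and 8.49 to 10.5 CPM at the same stages, so the 8-cell pools lay below all other libraries of the gene. SIRT4, also mitochondrial, was called only in blastocysts (32.8 and 35.6 CPM in polysomes, 4.12 to 6.4 CPM in transcriptomes, log2FC 2.61 ± 0.92, adjusted p = 0.0264, lost with any transcriptome letter left out).

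Consecutive stages were compared within each kind of library, with the spread estimated from both kinds together. A fit of the polysome pools alone called fewer members at every polysome step, as listed further down. From GV to MII, 11 of the 71 genes changed by more than 2-fold in transcriptomes (6 higher, 5 lower, against 17.1% of all genes, 6.61% higher and 10.5% lower) and 2 in polysomes (1 higher and 1 lower, against 5.37%, or 3.03% and 2.33%), the latter SIRT5, at 2.42 ± 0.66 (adjusted p = 0.0292), and SETDB1, the former lost with any transcriptome letter left out. From MII to 2-cell embryos 6 changed in transcriptomes, all higher (12% of all genes, 6% higher and 5.96% lower), and 5 in polysomes (2 higher, 3 lower, against 8.51%, or 3.37% and 5.14%). The 3 that fell in polysomes were SETD9 (-2.55 ± 0.58, adjusted p = 0.00745), KDM3A (-1.70 ± 0.52, adjusted p = 0.0415) and HDAC3 (-2.44 ± 0.49, adjusted p = 0.00285), and the 2 that rose were SETDB1 and KDM4A (2.07 ± 0.65, adjusted p = 0.0468). KDM4A and KDM3A lost this call with any transcriptome letter left out, though no transcriptome enters the comparison itself. Without pool A the fall of HDAC3 was 1.03. From 2-cell to 8-cell embryos 35 genes changed in transcriptomes (17 higher, 18 lower, against 50.1%, or 26.6% and 23.5%) and 27 in polysomes (12 higher, 15 lower, against 46.3%, or 21% and 25.2%). From 8-cell embryos to morulae 6 changed in transcriptomes (5 higher, 1 lower, against 14.4%, or 6.6% and 7.75%) and 21 in polysomes (15 higher, 6 lower, against 36.2%, or 18.5% and 17.7%). From morulae to blastocysts 13 changed in transcriptomes (9 higher, 4 lower, against 21.6%, or 10.2% and 11.4%) and 6 in polysomes (4 higher, 2 lower, against 13.9%, or 5.79% and 8.13%). Scaling by library totals changed the balance of the GV to MII step in transcriptomes to 2 higher and 7 lower, that of the morula to blastocyst step in transcriptomes to 7 and 5 and, in polysomes, that of GV to MII to 0 and 1, of MII to 2-cell to 3 and 2 and of the 8-cell to morula step to 11 and 11. Scaling by relative log expression (RLE) gave 11 higher and 5 lower for GV to MII and 5 higher and 2 lower for MII to 2-cell in transcriptomes. Without the 8-cell transcriptome A, 3 genes changed from 8-cell embryos to morulae in transcriptomes.

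With the 8-cell, morula and blastocyst stages set against GV, MII and 2-cell, 41 genes changed in transcriptomes (26 higher, 15 lower, against 61.9% of all genes tested, 32% higher and 30% lower) and 47 in polysomes (27 higher, 20 lower, against 60.4%, or 25.2% and 35.2%). The median log2FC of the 71 was 0.59 in transcriptomes and 0.29 in polysomes, where that of all genes was 0.15 and -0.29. Pool B decided 5 of the polysome rises: without it HDAC2 turned from 1.86 to -1.46, HDAC6 from 1.88 to -1.63, NSD1 from 2.10 to -1.59, KMT5A from 1.83 to -0.89 and SIRT4 from 2.06 to -0.78, values of 1 pool a stage. NSD3 turned from 1.10 to -0.25 without pool A. In both kinds of library 18 genes were higher and 13 were lower, and 15 were called in neither. The shares of all genes in these joint groups were not computed, so the counts give no result about the family. SETD4 was called higher in transcriptomes (2.54 ± 0.38) and lower in polysomes (-1.43 ± 0.45), the latter resting on its 8-cell pools with 5 counts in all and turning to 0.88 when the 8-cell stage was left out. Of the demethylases called in both, KDM2A, KDM3A, KDM5B, KDM5C and KDM6A rose, and KDM1B, KDM4C and KDM7A fell. Among genes called in both, the largest transcriptome rises were those of HDAC5 (5.60 ± 0.64 in transcriptomes and 6.64 ± 0.79 in polysomes), KDM6A (5.5 ± 0.51 and 3.32 ± 0.57), KAT2B (3.99 ± 0.63 and 5.10 ± 0.83), KDM5B (3.94 ± 0.22 and 3.89 ± 0.27) and KDM2A (3.29 ± 0.30 and 4.5 ± 0.38). The largest transcriptome falls were those of HDAC9 (-4.15 ± 0.56 and -5.37 ± 0.70), SUV39H2 (-3.97 ± 0.39 and -5.01 ± 0.52), SIRT3 (-3.63 ± 0.37 and -2.87 ± 0.42), KDM1B (-3.47 ± 0.37 and -2.10 ± 0.42) and KMT5B (-3.04 ± 0.21 and -2.60 ± 0.25). The stage with the highest mean was the same in polysomes and transcriptome for 28 of the 71 genes, against 40.3% of all genes tested.

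The change at activation differed between polysomes and transcriptome for 23 genes (9 changed more upwards in polysomes, 14 more downwards), against 26.7% of all genes tested (10.2% and 16.5%). SUV39H1 fell by 2.95 ± 0.28 in polysomes and by 0.82 ± 0.23 in transcriptomes, which was under 2-fold and not called, a difference of -2.13 ± 0.34 (adjusted p = 8.47e-05). For HDAC7 the difference was -2.73 ± 0.32 (adjusted p = 3.04e-06), for KMT2C -1.63 ± 0.25 (adjusted p = 5.99e-05), for KDM5A -1.55 ± 0.33 (adjusted p = 0.00128) and for SIRT6 -1.33 ± 0.33 (adjusted p = 0.0046). KAT5 (-1.26 ± 0.38, adjusted p = 0.0148) and KDM4C (-1.83 ± 0.63, adjusted p = 0.0338) lay on the same side. Both calls were lost with any transcriptome letter left out. In the other direction KDM1A differed by 2.11 ± 0.30 (adjusted p = 2.17e-05), HDAC8 by 1.52 ± 0.31 (adjusted p = 0.000801), DOT1L by 2.43 ± 0.65 (adjusted p = 0.00744) and EZH2 by 1.72 ± 0.56 (adjusted p = 0.0237). The EZH2 call was lost without pool B (0.60) or any transcriptome letter, and that of DOT1L without pool B (0.99) or transcriptome letter B. Scaling by library totals left 4 genes more upwards and 16 more downwards.

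**Figure D4:**
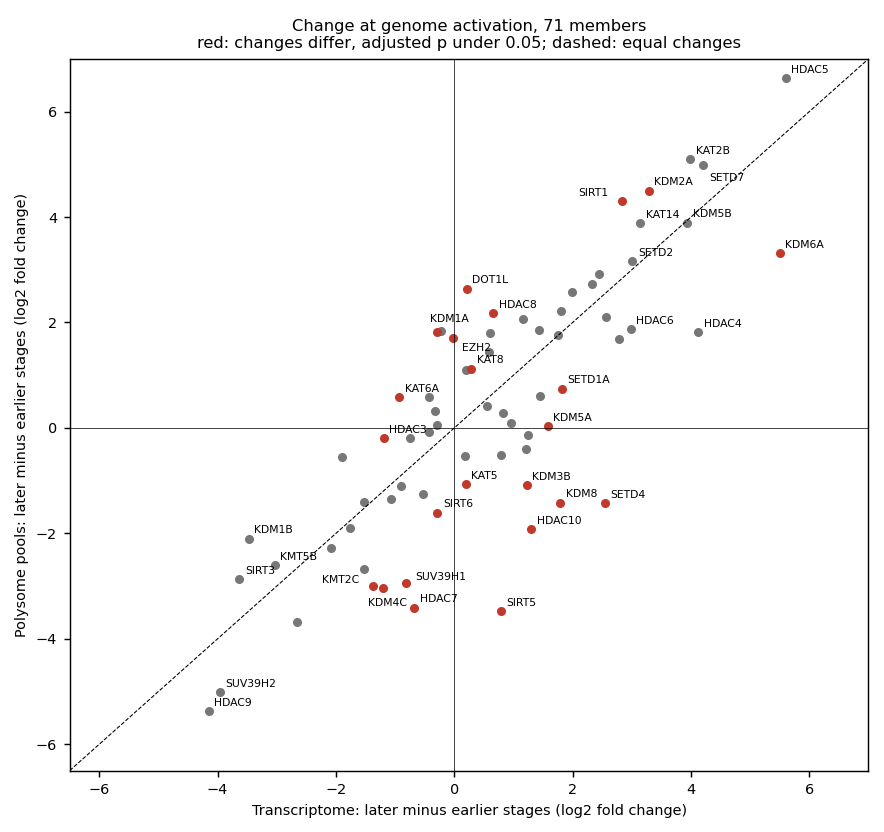
Change of each of the 71 genes from the 3 earlier to the 3 later stages, log2 fold change, in transcriptomes (x axis) and polysomes (y axis), with the dashed line at equal change. Red points are the 23 genes whose 2 changes differed at an adjusted p under 0.05, with SUV39H1 and HDAC7 under the line and KDM1A and DOT1L over it.

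The steps into and out of the 8-cell stage were also tested separately, an addition made after the data were seen. From the 2-cell to the 8-cell stage the change differed for 9 genes (3 more upwards in polysomes, 6 more downwards, 12.2% of all genes), and from the 8-cell stage to the morula for 8 (6 and 2, 12.5%). KDM3B, KDM4B, SETD4, SETD7 and SIRT5 were called in both steps with opposite signs, down in polysomes relative to the transcriptome and then up. Both steps use the same 8-cell libraries with opposite sign, so a low 8-cell pool enters both calls. The reversal is therefore no separate evidence, and the share of all genes called in both steps was not computed. HDAC1, HDAC8 and KAT2A (2.35 ± 0.56, adjusted p = 0.00816) were the 3 that moved upwards in the former step, and KDM6A completed the 6 that moved downwards. KMT2C (-2.42 ± 0.45, adjusted p = 0.000922) and HDAC7 (-3.35 ± 0.57, adjusted p = 0.000513) were the 2 that moved downwards in the later step, and NSD3 (3.13 ± 1.03, adjusted p = 0.0482) completed the 6 that moved upwards.

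Within a gradient, the heavy pool (F8 to F10) was compared with the lighter pool of F3 to F5, a test that uses no transcriptome. No member was called in GV, MII, 2-cell, morula or blastocyst material by edgeR's quasi-likelihood test, where 0.269%, 0.202%, 0%, 1.41% and 1.31% of all 14873 genes were called. At an unadjusted p under 0.05 there were 7, 3, 4, 12 and 10 members at these stages, and edgeR's likelihood ratio test called 2 in GV oocytes, 8 in morulae and 6 in blastocysts. In 8-cell embryos 6 members were called (2 higher and 4 lower in the heavy pool), against 8.74% of all genes. The 4 lower were SUV39H1 (-1.53 ± 0.40, adjusted p = 0.043), KAT5 (-3.19 ± 0.63, adjusted p = 0.0197), SIRT5 and KDM3B. SUV39H1 held 194 and 256 CPM in the lighter pools of 8-cell embryos and KAT5 held 198 and 249.8 CPM, both above their heavy pools. HDAC8 was higher in the heavy pool (4.77 ± 1.26, adjusted p = 0.0433), with 0.297 and 5.21 CPM in the lighter pools, and HDAC4, with no count in the lighter pools, kept its call in 2 of 5 alternative settings.

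The transient loss of SIRT5 in 8-cell embryos was restricted to the lower part of the gradient. Its mean level over the 2 gradients was 15.8, 15.6, 21.6, 17.5 and 20 CPM in F1 to F5, and 0 CPM in F6, F7, F9 and F10 with 0.0422 CPM in F8. SETD4 stood at 8.41, 4.03, 5.65, 5.91 and 3.58 CPM in F1 to F5 of 8-cell embryos and at 0 to 0.127 CPM in F6 to F10. KDM3B had no count in F6 to F10 and a mean of 24.3 CPM in F3. The mRNAs of these 3 genes were thus present in the lighter fractions of the same gradients, each from 2 gradients of pooled embryos, and the KDM3B level in the 2 lighter pools was uneven (23.8 and 2.68 CPM).

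**Figure D5:**
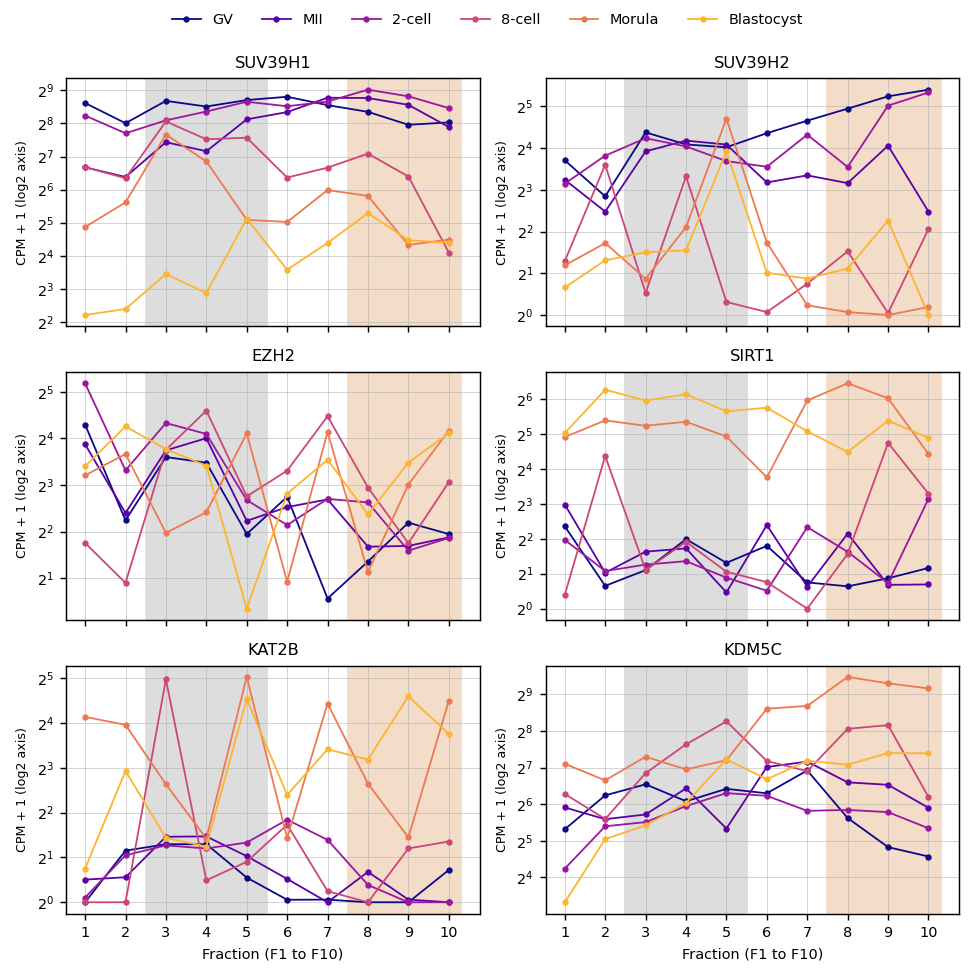
Mean level of the 2 gradients in each fraction F1 to F10 (CPM + 1, log2 axis) for SUV39H1, SUV39H2, EZH2, SIRT1, KAT2B and KDM5C, with a line for each stage, grey shading over F3 to F5 and orange over F8 to F10. For SUV39H1 the GV, MII and 2-cell lines lie above the blastocyst line in all fractions, and for SIRT1 the GV, MII and 2-cell lines lie below the morula and blastocyst lines in all fractions.

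When F3 to F5 were set against the transcriptome in place of F8 to F10, the lighter pool gave the same direction and call for 151 of the 207 member calls of polysomes against transcriptome, no call for 53, and an opposite call for 3. The 3 were KAT8 in GV oocytes (1.21, adjusted p = 0.0067) and KDM3B (1.67, adjusted p = 0.0449) and KDM4B (1.54, adjusted p = 0.0394) in 8-cell embryos. The lighter pool called 42, 45, 35, 48, 45 and 29 members from GV to blastocyst, where 52.8%, 59.6%, 48.5%, 71.4%, 58.9% and 42.9% of all genes were called. Most of the 207 member calls were therefore repeated with the lighter part of the gradient. In GV oocytes, for example, the lighter pools held 390 and 458 CPM of KAT2A and 620 and 680 CPM of HDAC7, also above the transcriptomes. A gap between polysomes and transcriptome thus does not by itself show loading onto polysomes. Both comparisons use the same transcriptomes, so part of this agreement is built in. The share of calls over all genes that the lighter pool repeated was not computed. Gradient fractions and transcriptomes differed in lysis and input as well, and the part of these in the differences was not tested.

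The lysine enzymes that the name rule misses were read from a list of 20, of which 19 were tested. In polysomes 2 to 4 of the 19 (10.5% to 21.1%) were called higher and 3 to 6 (15.8% to 31.6%) lower at a stage. At these stages 20% to 30.8% of all genes were called higher and 17.7% to 31% lower. HAT1, which acetylates new H4 before it enters chromatin, was lower in polysomes at all 6 stages, from -4.51 ± 0.43 in morulae to -2.14 ± 0.38 in blastocysts. At genome activation 4 of the 19 rose and 3 fell in transcriptomes (32% and 30% of all genes), and 2 rose and 7 fell in polysomes (25.2% and 35.2%). Of 44 partners and readers, 8 to 13 (18.2% to 29.5%) were called higher and 13 to 20 (29.5% to 45.5%) lower in polysomes at a stage. In GV oocytes 40.9% of them were lower against 17.7% of all genes. The list was chosen with results known, and nothing is read from that share. At activation 14 rose and 10 fell in transcriptomes (31.8% and 22.7%) and 16 rose and 11 fell in polysomes (36.4% and 25%). The heterochromatin protein CBX5, which binds methylated H3K9, was lower in polysomes at all 6 stages, and TRIM28, the corepressor that brings SETDB1 to its targets, was higher at 5.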

How the data were processed

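RNA of 138 libraries was measured: 120 gradient fractions and 18 transcriptomes of pooled bovine oocytes or embryos, amplified with a Smart-seq kit and tagmented. The deposited values are estimated counts per gene, which the authors made with Salmon and analysed with edgeR (versions not given). The labels name genome build UMD3.1 and the study's methods ARS-UCD1.2, so no coordinates are printed. Of these values 11.7% were not whole. Transcriptome values, and sums over fractions, were rounded to whole numbers for the count test. The table held 0 columns without a sample, and 0 of 78 pairs of replicates were identical.

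Counts of F8 to F10 and of F3 to F5 were summed for each gradient. The 12 polysome pools and 18 transcriptomes were fitted together with 12 groups in edgeR 4.0.16 (R 4.3.3, limma 3.58.1), with filterByExpr, trimmed mean of M values and the quasi-likelihood F test (two-sided), and p-values were adjusted by Benjamini-Hochberg over 14612 genes. Calls needed an adjusted p under 0.05 and, between stages, a fold above 2. Heavy and lighter pools were compared with the gradient as a block over 14873 genes. For a bound, a group with no count was set at 3 counts in the shallower of its libraries, which covers counting error only. Replicates are pools of oocytes or embryos, and the spread between them may be technical. The model of 30 libraries estimated 1 spread a gene from polysomes and transcriptomes together. Its p-values for polysome steps therefore do not measure the spread between polysome pools alone. The lowest r between libraries of a stage was 0.798 for polysome pools and 0.952 for transcriptomes, both in 8-cell embryos. The scripts that fit models were tested on simulated counts. All 71 symbols matched RefSeq, but transcript lengths and sequences were not used here, so levels were not compared between genes.

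All members could be named within their class, the 5 called members with the largest folds in each direction for each comparison, and both genes of paralog pairs whatever their result. The enzymes, gene lists and tests were chosen with earlier results of these data known. Alternatives were the likelihood ratio test, DESeq2 1.42.0, other scaling, no filter, other pools, replicate blocks, fits of only the groups compared and leaving out replicate letters. "Without letter A" means without it at all stages. Tables and figures were made with Python 3.11.15, pandas 2.3.3, numpy 2.4.6 and matplotlib 3.10.9.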

Additional observations from a re-analysis of the deposited data

Results flagged for a closer look

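For 23 enzymes the change from the GV, MII and 2-cell stages to the 8-cell, morula and blastocyst stages differed between polysomes and transcriptome by edgeR's quasi-likelihood test of the difference itself. The values are log2 differences, polysomes minus transcriptome. Polysomes changed more downwards for SIRT5 (-4.27), SETD4 (-3.97), HDAC10 (-3.22), KDM8 (-3.21), HDAC7 (-2.73), KDM3B (-2.31), KDM6A (-2.19), SUV39H1 (-2.13), KDM4C (-1.83), KMT2C (-1.63), KDM5A (-1.55), SIRT6 (-1.33), KAT5 (-1.26) and SETD1A (-1.07). Those of SIRT5, SETD4, KDM3B and KDM8 involve a group with 5 counts or fewer and depend on the prior count of the fit. Polysomes changed more upwards for DOT1L (2.43), KDM1A (2.11), EZH2 (1.72), HDAC8 (1.52), KAT6A (1.5), SIRT1 (1.47), KDM2A (1.21), HDAC3 (0.99) and KAT8 (0.83). With any replicate letter left out at all stages the calls of SIRT5, SETD4, HDAC7, SUV39H1, KMT2C, KDM5A, SIRT6, KDM1A and HDAC8 held, and each of the others was lost under at least 1 of these 5 settings. The cause of the differences was not tested.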

How the results depend on the processing

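Counts are of members called, and the cause of each change was not tested. Of 450 member calls in the model of 30 libraries, DESeq2 kept 444, RLE scaling 439 of 456, library totals 410, F9 and F10 alone 374 and a fit of only the groups compared 327 of 427. Against the transcriptome, only the groups compared gave 22 in 8-cell embryos and F3 to F5 gave 42 in GV oocytes and -0.99 for HDAC10 in blastocysts. For transcriptome steps, GV to MII gave 22 (DESeq2), 7 (F9 and F10) and 23 (only the groups compared), MII to 2-cell 11 (likelihood ratio), 12 (DESeq2), 13 (library totals) and 20 (only the groups compared), 8-cell to morula 10, 3 and 15 (likelihood ratio, F9 and F10, only the groups compared), and morula to blastocyst 29 (only the groups compared). For polysome steps, GV to MII gave 4, 6, 1 and 0 (likelihood ratio, DESeq2, library totals, only the groups compared), MII to 2-cell 8 and 0 (DESeq2, only the groups compared), 2-cell to 8-cell 8 and 8-cell to morula 4 (only the groups compared), and morula to blastocyst 11, 11 and 0 (likelihood ratio, DESeq2, only the groups compared). In the 3 fits with 0 calls, edgeR's quasi-likelihood test gave 3, 2 and 7 members at an unadjusted p under 0.05. Heavy against lighter pools gave 2, 22, 8 and 6 with the likelihood ratio test in GV, 8-cell, morula and blastocyst material and 1 with RLE in morulae.

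The labels do not say that a letter marks shared material, and A minus B differences of polysomes and transcriptomes correlated by -0.065 to 0.0078 across genes at a stage, so the letters were not taken as pairs. With them as a replicate block within a stage, polysomes against transcriptome gave 11, 22, 22, 23, 15 and 10 from GV to blastocyst, with a block over all stages MII to 2-cell polysomes gave 3, and without the replicate block heavy against lighter pools gave 1 in GV and 1 in morula material.

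Leaving out 1 replicate letter gave 15 to 47, 27 to 50, 22 to 50, 29 to 57, 21 to 54 and 13 to 49 for polysomes against transcriptome from GV to blastocyst. For the 5 transcriptome steps in order it gave 4 to 23, 1 to 20, 22 to 47, 1 to 16 and 3 to 29, for the 5 polysome steps 1 to 21, 2 to 22, 24 to 44, 16 to 49 and 2 to 28, and for the difference at activation 9 to 42. Leaving out a polysome letter leaves 1 pool a stage, assumed to vary like the transcriptomes, and letters A and B then gained 276 and 302 calls. Of 450 calls, 258 held in all 5 such settings, and HDAC10 in 8-cell embryos ranged from -4.67 without pool B to 3.87 without pool A. Heavy against lighter pools could not be fitted without a replicate letter at all stages, for lack of residual degrees of freedom. A fit without 1 gradient was not tried. Adding 0.1 CPM rather than 1 CPM before taking logs left 42 members with a higher and 29 with a lower mean log level after activation. Depth limits genes with few counts a group, and 2 pools a stage limit the rest.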
